A study of Homo sapiens
Rattus norvegicus and Homo sapiens with 10 samples.

Results

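LRP1, a large receptor that binds proteins outside the cell and carries them inside, stood lower in glioblastoma xenografts that had regrown after laser ablation, at 0.490 of its mean level in unablated tumours. It was set beside its relatives: the LDL receptor family members LRP1B, LRP2, VLDLR, LRP8, LRP5 and LRP6, the more distant LRP10 and LRP12, and LRPAP1, the chaperone that keeps these receptors free of ligand until they reach the cell surface. These 10 genes were taken by symbol from a table of 62754 genes. LRP1 was chosen because its values differed between recurrent and primary tumours, so that difference is given as a description and carries no test. All 10 genes passed the filter on low counts in each comparison.

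RNA was sequenced from U251N, an established human glioblastoma cell line, implanted into the brains of adult female RNU/RNU rats, an immune-compromised strain. The 3 recurrent tumours (post-LITT) had regrown after laser interstitial thermal therapy, in which a fibre heats the tumour under diffusion-weighted magnetic resonance imaging. The 3 primary tumours (pre-LITT) were not ablated, and 1 culture of the line served as a reference from outside the experiment. The 3 controls, labelled procedural or failed-graft, came from brains, likewise labelled as xenograft tissue, with graft reads at 0.33% to 4.9%. Whether every library is a separate animal is not stated in the labels. The p-values thus measure the spread between libraries, which may in part be technical.

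Receptors of the LDL receptor family share ligand-binding repeats, six-bladed propeller domains and a single span of the membrane. LRP1 takes up protease-inhibitor complexes, apolipoprotein E and matrix proteins, and its tail binds adaptors that couple it to clathrin and to signalling. VLDLR and LRP8 are the receptors for reelin, a guide of neuronal migration, while LRP5 and LRP6 are co-receptors for Wnt proteins.

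The tails differ in short motifs that separate the uptake receptors from the Wnt co-receptors. The following 30-base coding stretches were read from GENCODE 29 transcripts on GRCh38, 5′ to 3′ on the coding strand, and capitals mark the codons of NPxY (asparagine, proline, any residue, tyrosine), which adaptors such as DAB1 bind.
LRP1 first: gagattggaAACCCCACCTACaagatgtac
LRP1 last: aacttcaccAACCCCGTGTATgccacactc
LRP1B first: gaaattggcAATCCATCTTATaacatgtat
LRP1B last: aattactccAATCCGGTATATgcaaaatta
LRP2 first: atatttgaaAACCCAATGTACtcagccaga
LRP2 last: aactttgaaAATCCAATCTATgcacagatg
VLDLR: aactttgacAATCCTGTGTACttgaaaacc
LRP8: aattttgacAACCCAGTCTACaggaaaaca
The LRP1 stretches lie at chr12:57212166-57212195 and chr12:57212421-57212450 on the plus strand, in exons of the receptor tail. Those of LRP1B lie at chr2:140238218-140238247 and chr2:140233291-140233320, and those of LRP2 at chr2:169137425-169137454 and chr2:169128828-169129039, all on the minus strand. The last LRP2 stretch spans an intron. The VLDLR stretch is at chr9:2652854-2652883 on the plus strand and that of LRP8 at chr1:53250759-53250788 on the minus strand. LRP1, LRP1B and LRP2 each held 2 such motifs in their last 220 codons, and VLDLR and LRP8 held 1. Among 19471 human coding sequences, 319 (1.64%) held the motif in the same window.

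LRP5 and LRP6 held none there, but each held 2 copies of PPPSP, a motif of prolines around a serine that is phosphorylated when Wnt binds. Capitals in the next lines mark its codons.
LRP5 first: atcctgaacCCGCCGCCCTCCCCGgccacg
LRP5 last: ctcttcccgCCCCCTCCGTCCCCCtgcacg
LRP6 first: attttgaacCCTCCACCATCCCCAgccaca
LRP6 last: ctctacccaCCGCCACCCTCTCCCtgtaca
The LRP5 stretches are at chr11:68446436-68446465 and chr11:68449029-68449058 on the plus strand, and those of LRP6 at chr12:12124633-12124662 and chr12:12121138-12121167 on the minus strand. LRP2 held 1 copy of this motif as well, and 60 of 19471 coding sequences (0.308%) held it. LRP10, LRP12 and LRPAP1 held neither motif in the window searched. LRPAP1 ends in HNEL, the signal that returns it to the endoplasmic reticulum, marked in capitals before the stop codon at chr4:3512977-3513015 on the minus strand.
LRPAP1: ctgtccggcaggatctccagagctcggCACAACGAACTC

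Total estimated counts ran from 20321561 to 25299579 in recurrent tumours, from 25316536 to 39714692 in primary tumours, and reached 65058609 in the culture and 1358738 to 4158117 in controls. Graft reads made up 29.44% to 42.67% of recurrent and 42.52% to 64.4% of primary libraries, per the labels. Structural small RNA genes took 6.04% to 14.1% of the counts in tumours, against 92.6%, 89.7% and 31.3% in controls 1, 2 and 3, so the first pair hold few messenger reads. All 8 markers of the line (the glioblastoma list) had counts in each of the 10 libraries. Their sum, in CPM of the total without small RNA, was 8850 to 9497 in recurrent tumours, 9778 to 10523 in primary tumours and 10914 in the culture. In the controls, labelled as grafts that failed or as procedures, it was 1390, 5120 and 9864. As a share of its counts, control 3 thus carried line markers at the level of a tumour. In raw counts their sum was 28176 in control 3, against 168383 to 392676 in tumours.

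LRP1, encoded at chr12:57128493-57213351 on the plus strand of GRCh38, measured 84.8, 65.7 and 68.2 CPM in the recurrent tumours, against 170.3, 113 and 163 CPM in the primary tumours and 101 CPM in the culture. CPM, here and below, is the count scaled to the library total after TMM correction. Every recurrent tumour was below the culture and every primary tumour above it, as in 126 of 19306 genes (0.653%). Nothing is read from that share, since the difference between the groups chose LRP1. The mean was 72.9 ± 10.4 CPM in recurrent tumours and 148.7 ± 31.3 CPM in primary tumours (SD, n = 3 each), a ratio of 0.490. The fitted log2 fold change, recurrent over primary, was -1.02 (SE 0.19), and it ran from -1.19 to -0.91 when any 1 tumour was left out. Tumour library names carry the prefix IL or NL, of unstated meaning. All primary tumours and recurrent tumour 1 are IL. Within the IL libraries the log2 fold change was -0.81. A fit with the labels' graft percentage as a term gave -1.03. In bulk tissue, fewer cells that use a gene and less RNA per cell cannot be told apart.

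**Figure D1:**
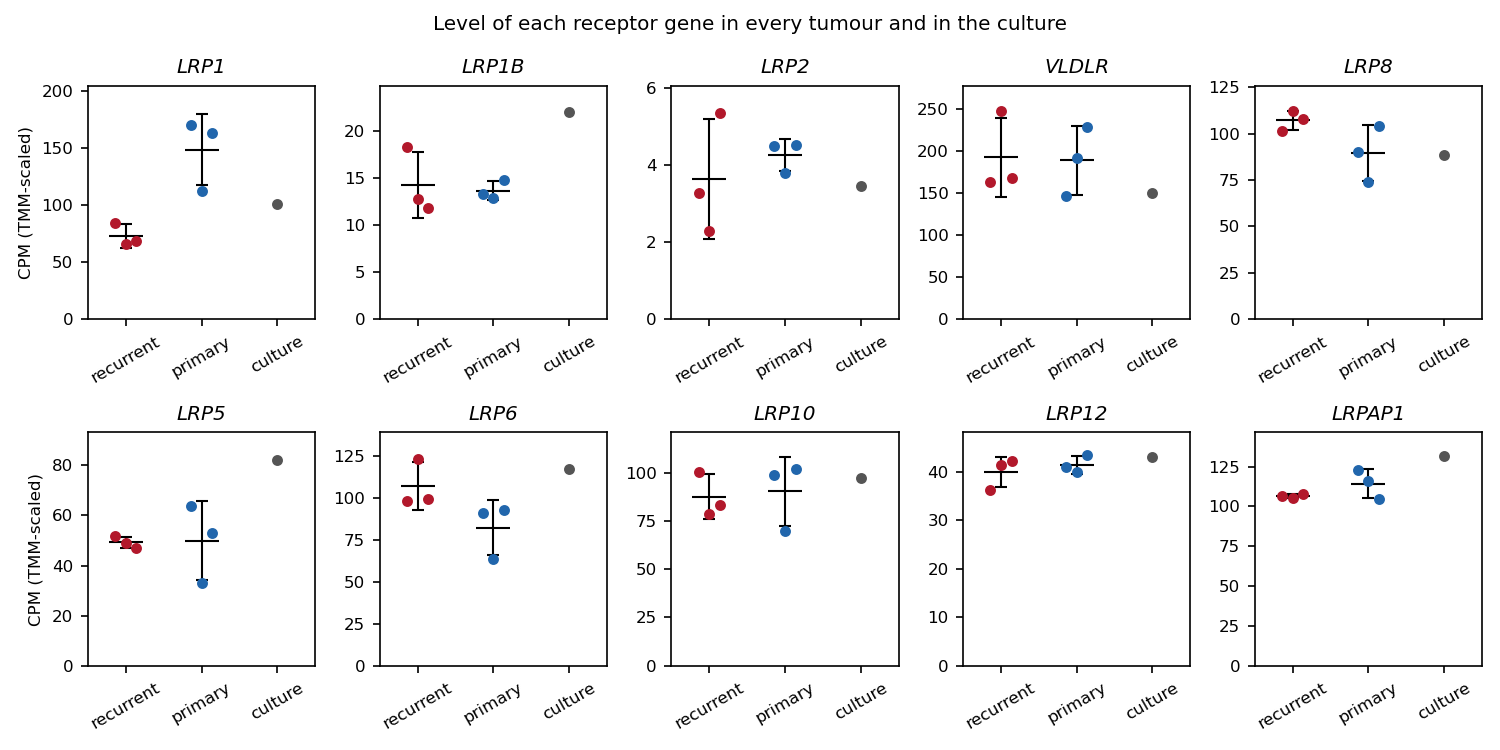
TMM-scaled CPM of each of the 10 genes, 1 panel per gene with its own axis from 0; each point is 1 library (recurrent, primary, culture from left to right), and black lines give the mean and SD of 3 tumours. The LRP1 points of the recurrent tumours sit between 65.7 and 84.8 CPM, below the culture and all primary points, while 8 of the 10 genes overlap between the tumour groups.

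Markers of other brain cells were examined beside LRP1. Several are also used by the line itself, so these sums are not counts of host cells. In CPM of the total without small RNA, the 8 neuron markers summed to 23.8 to 26.0 in recurrent and 17.2 to 22.1 in primary tumours, against 61.1 in the culture. The 6 oligodendrocyte markers summed to 133 to 231 in recurrent and 188 to 191 in primary tumours, and the 5 astrocyte markers to 413 to 549 in recurrent and 534 to 571 in primary tumours. The 8 microglia and macrophage markers summed to 27.5 to 30.5 in recurrent and 24.1 to 31.7 in primary tumours. CX3CR1, P2RY12, AIF1, C1QA and C1QB were at 0 in every library, the brain controls included. Their zeros thus cannot tell whether a tumour held host microglia. The 7 endothelial and mural markers summed to 16.4 to 18.2 in recurrent and 12.9 to 22.6 in primary tumours, and the 3 fibroblast markers to 117 to 164 in recurrent and 82.9 to 97.7 in primary tumours, against 266 in the culture. All 4 blood markers were at 0 in every library. The neuron and fibroblast sums were higher in recurrent tumours with no overlap. The culture, which holds no host cells, was above every tumour in both. Both sums were led by genes that the line itself uses, so they do not bear on host content, which was not tested. The fibroblast sum was mostly PDGFRA, a receptor for platelet-derived growth factor, at 130 ± 22.9 CPM in recurrent and 81.2 ± 8.36 CPM in primary tumours (SD, n = 3 each), against 237 CPM in the culture. Of the neuron markers, SNAP25 averaged 1.41 ± 0.569 CPM in recurrent and 2.12 ± 0.598 CPM in primary tumours, below its level in the culture of 2.54 CPM. GAD1 averaged 6.21 ± 1.25 and 6.53 ± 0.629 CPM in that order, against 21.0 CPM in the culture. The other 2 tested had higher means in recurrent tumours, with overlap. SYT1 averaged 11.7 ± 4.14 CPM in recurrent and 7.96 ± 1.25 CPM in primary tumours, against 30.7 CPM in the culture. RBFOX3 averaged 2.60 ± 2.51 and 0.624 ± 0.620 CPM in that order, against 0 in the culture and 51.0 to 226 CPM in controls. Graft shares were lower in recurrent tumours with a narrow overlap. Their part in the LRP1 values was not tested.

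The host share of LRP1 was estimated from control counts per host read, at first taking each total to hold graft and host reads alike. It was 10.0% to 11.7% in recurrent and 2.54% to 6.25% in primary tumours, but this value depended on how host reads were defined. With small RNA left out it reached 102% in the highest tumour, which cannot be. With host reads scaled by the odds of host to graft reads it was at most 0.195%. As a share of its counts, control 3 carried line markers at the level of a tumour. With line markers present, its LRP1 counts cannot be taken as host counts alone. On the scale without small RNA, LRP1 stood at 334 CPM in control 3, from 953 counts. It was 72.4 to 190 CPM in tumours and 113 CPM in the culture. Which cells gave the LRP1 counts of control 3 was not tested, and no host part was subtracted from the LRP1 levels given here.

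LRP1 also made up a smaller part of the receptor set. Of the counts of all 10 genes, LRP1 held 11.1% (Wilson 95% interval 10.6 to 11.6), 7.84% (7.49 to 8.21) and 9.21% (8.80 to 9.64) in the recurrent tumours. It held 20.2% (19.7 to 20.8), 15.7% (15.2 to 16.3) and 17.9% (17.5 to 18.3) in the primary tumours and 12.1% (11.8 to 12.4) in the culture. The intervals cover counting error only. The 2 groups did not overlap, with the culture just above the recurrent tumours. The ratio of LRP1 to LRPAP1 counts, not corrected for length, was 0.795, 0.624 and 0.634 in recurrent tumours, against 1.39, 0.975 and 1.56 in primary tumours and 0.768 in the culture. The culture fell within the recurrent values, below all primary ones. These shares are the same difference on another scale, not separate evidence.

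**Figure D2:**
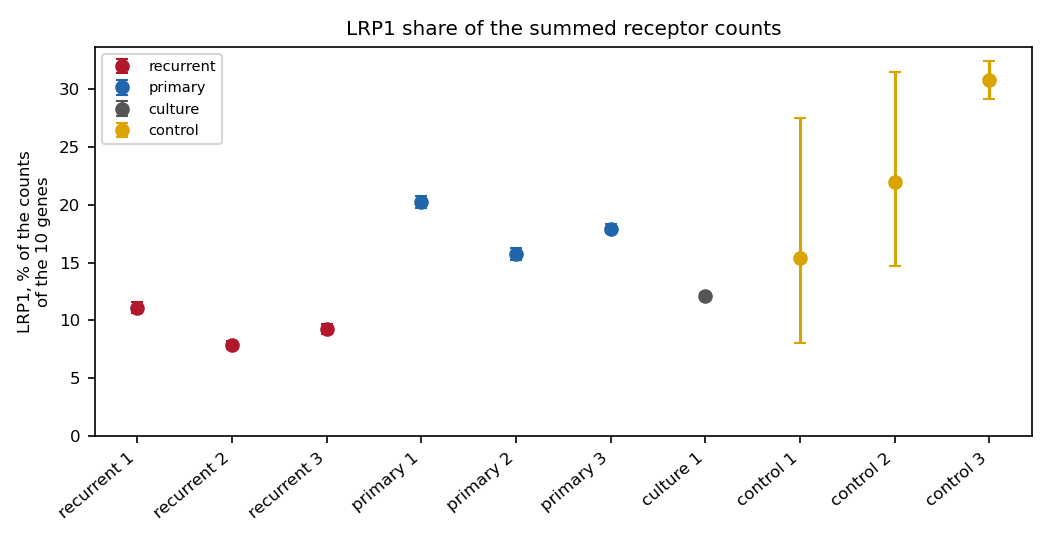
Share of LRP1 in the summed counts of the 10 genes, in percent, for each library, with Wilson 95% intervals as bars. Recurrent tumours lie at 7.84% to 11.1%, primary tumours at 15.7% to 20.2%, the culture at 12.1% and the controls, with far fewer counts, at 15.4% to 30.8%.

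Values of the closest relatives overlapped between the tumour groups. LRP1B, a receptor built like LRP1 that is lost in many tumours, measured 18.3, 12.7 and 11.9 CPM in recurrent tumours, against 13.3, 12.9 and 14.8 CPM in primary tumours and 22.0 CPM in the culture. The culture was above all 6 tumours, and the log2 fold change, recurrent over primary, was 0.07 (SE 0.20). LRP2, or megalin, best known for protein uptake in the kidney, was the lowest of the set per transcript length, as given below. LRP2 ranged from 2.30 to 5.34 CPM in recurrent tumours and from 3.80 to 4.52 CPM in primary tumours, with 3.44 CPM in the culture and a log2 fold change of -0.22 (SE 0.36), recurrent over primary.

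The reelin receptors showed overlapping groups. VLDLR measured 163, 247 and 167 CPM in recurrent tumours, against 147, 192 and 228 CPM in primary tumours and 149.9 CPM in the culture. Its mean was 192 ± 47.3 CPM in recurrent and 189 ± 40.7 CPM in primary tumours (SD, n = 3 each). LRP8 measured 102, 112 and 108 CPM in recurrent tumours, against 90.2, 74.1 and 104 CPM in primary tumours and 88.6 CPM in the culture. Primary tumour 3 fell among the recurrent values, and the log2 fold change was 0.27 (SE 0.15), recurrent over primary.

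Of the Wnt co-receptors, LRP6 was the other gene whose groups did not overlap, in the opposite direction to LRP1. It measured 98.4, 123 and 99.2 CPM in recurrent tumours, against 90.9, 63.4 and 92.9 CPM in primary tumours and 117 CPM in the culture. The gap was narrow, with a mean of 107 ± 14.2 CPM in recurrent and 82.4 ± 16.5 CPM in primary tumours (SD, n = 3 each), a log2 fold change of 0.39 (SE 0.18). Without primary tumour 2, it was 0.22. LRP5 measured 51.6, 49.0 and 47.2 CPM in recurrent tumours, against 63.9, 32.9 and 52.9 CPM in primary tumours and 82.2 CPM in the culture. Its primary values spread to both sides of the recurrent ones. Primary tumour 2, with the lowest RNA integrity number of the tumours (7.8), was the lowest of the 6 in LRP5, LRP6, LRP8 and LRP10. The part of RNA quality in this was not tested.

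LRP10 and LRP12, single-span proteins with LDL receptor class repeats, and the chaperone LRPAP1 also overlapped between the groups. LRP10 measured 101, 78.7 and 83.4 CPM in recurrent tumours, against 98.6, 69.9 and 102 CPM in primary tumours. LRP12 ranged from 36.3 to 42.2 CPM in recurrent and from 39.9 to 43.4 CPM in primary tumours. LRPAP1 averaged 106 ± 1.13 CPM in recurrent and 114 ± 9.15 CPM in primary tumours (SD, n = 3 each). Log2 fold changes of these genes, recurrent over primary, were -0.03, -0.04 and -0.09 in that order.

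LRP1 aside, edgeR's quasi-likelihood test with Benjamini-Hochberg adjustment called 0 of the other 9 genes between recurrent and primary tumours, where it called 1 of 15928 genes (0.00628%). At an unadjusted p under 0.05 it passed 0 of these 9 and 8.38% of all genes (4.59% higher, 3.79% lower). DESeq2 called 0 of the 9 and 0.735% of all genes. Groups did not overlap for 1 of the 9, LRP6, and for 15.3% of all genes (7.43% higher, 7.86% lower). Nothing is read from these counts, since the set was drawn up around this contrast.

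**Figure D3:**
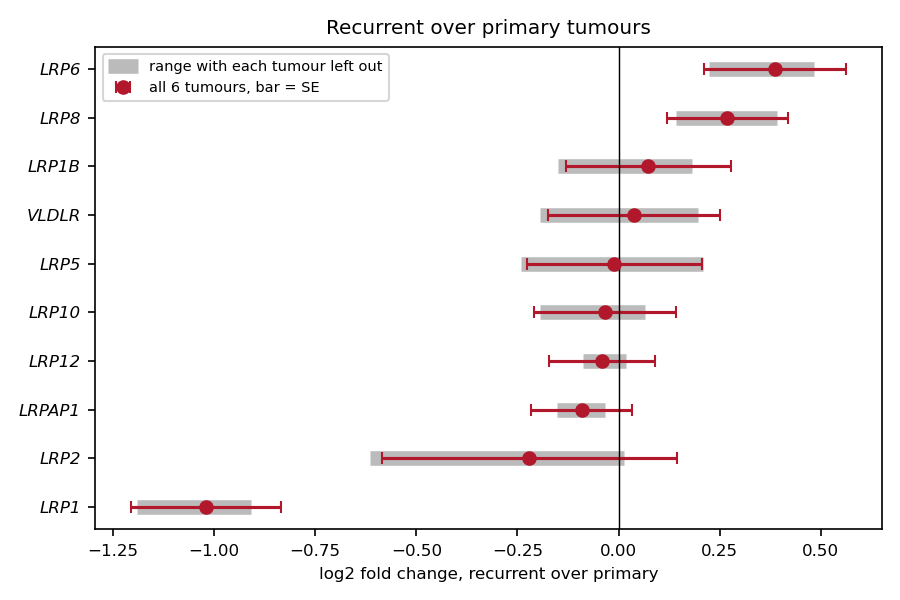
Log2 fold change of recurrent over primary tumours for each of the 10 genes; points are fits on all 6 tumours with the SE as bars, and grey bands give the range with each tumour left out. LRP1 lies at -1.02, with a range of -1.19 to -0.91, and the other genes lie between -0.22 and 0.39.

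Per kilobase of transcript, which allows levels to be compared between genes, VLDLR led the 6 tumours at a mean of 20.8 CPM per kilobase. LRP10 followed at 12.9, LRP8 at 12.8, LRPAP1 at 10.6, LRP12 at 9.90, LRP5 at 9.61, LRP6 at 9.45 and LRP1 at 7.44 CPM per kilobase. LRP1B at 0.845 and LRP2 at 0.253 CPM per kilobase came last. Ranges over the tumours were apart only between VLDLR and LRP10, LRP1 and LRP1B, and LRP1B and LRP2. All other neighbours in the order overlapped. LRP1 averaged 4.89 ± 0.696 CPM per kilobase in recurrent and 9.98 ± 2.10 in primary tumours (SD, n = 3 each), against 6.79 in the culture, and ranked 8 of 10 in recurrent and 6 of 10 in primary tumours. The order in the middle depended on the length used: with merged exon lengths in place of transcript lengths, LRP12 ranked 8 and not 5, LRP6 ranked 5 and not 7, and LRP1 ranked 7 and not 8 over all tumours.

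**Figure D4:**
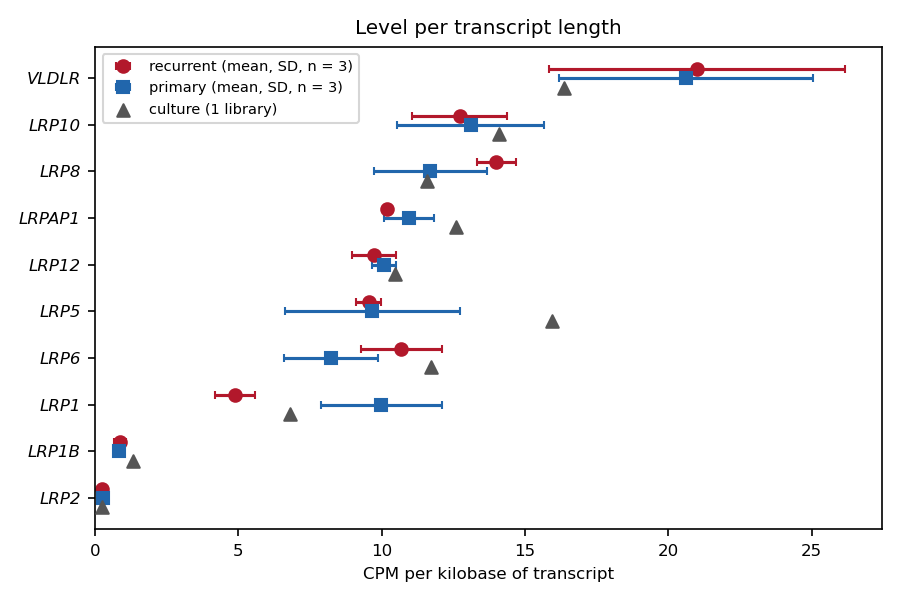
Level of the 10 genes in CPM per kilobase of transcript, ordered by the mean over tumours; circles and squares are means of 3 recurrent and 3 primary tumours with the SD as bars, and triangles are the culture. VLDLR stands highest and LRP1B and LRP2 lowest, and LRP1 is at 4.89 in recurrent and 9.98 in primary tumours.

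Tumours were next compared with the culture, a contrast that did not choose LRP1. No gene of the set passed the threshold. The culture is 1 library and was taken to vary as the tumours do within their groups. EdgeR's quasi-likelihood test with Benjamini-Hochberg adjustment called 0 of the 10, against 7.66% of all 19306 genes tested (3.34% higher, 4.32% lower). At an unadjusted p under 0.05 it passed 2 of the 10, LRP1B and LRP5, and 22.3% of all genes, and DESeq2 called 0 of the 10 and 12.8% of all genes. The largest differences were in LRP5, with a log2 fold change of -0.73 (SE 0.26, edgeR adjusted p = 0.120), and LRP1B at -0.65 (SE 0.25, edgeR adjusted p = 0.140). All 6 tumours were below the culture in both genes, as in 25.2% of all genes. Without primary tumour 2, LRP5 passed the threshold at an edgeR adjusted p of 0.027, and with no filter on low counts at 0.0045. On the scale without small RNA, the summed astrocyte markers were 413 to 571 CPM in tumours, against 186 CPM in the culture. The neuron markers, on that scale, summed to 17.2 to 26.0 CPM in tumours, against 61.1 CPM in the culture. Their part in these differences was not tested.

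LRP1 over both tumour groups was near the culture, at a log2 fold change of 0.04 (SE 0.24, 95% interval -0.49 to 0.58, edgeR adjusted p = 0.956). That mean joins unlike groups: against the culture, recurrent tumours alone stood at -0.47 (SE 0.25) and primary tumours alone at 0.56 (SE 0.27) on the log2 scale. Both values share the culture library. For the other genes the 95% intervals, tumours over culture, were -0.82 to 0.18 for LRP6, -0.63 to 0.12 for LRPAP1 and -0.63 to 0.37 for LRP10. They were -0.47 to 0.31 for LRP12, -0.31 to 0.59 for LRP8, -0.29 to 0.98 for VLDLR and -0.87 to 1.26 for LRP2.

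**Figure D5:**
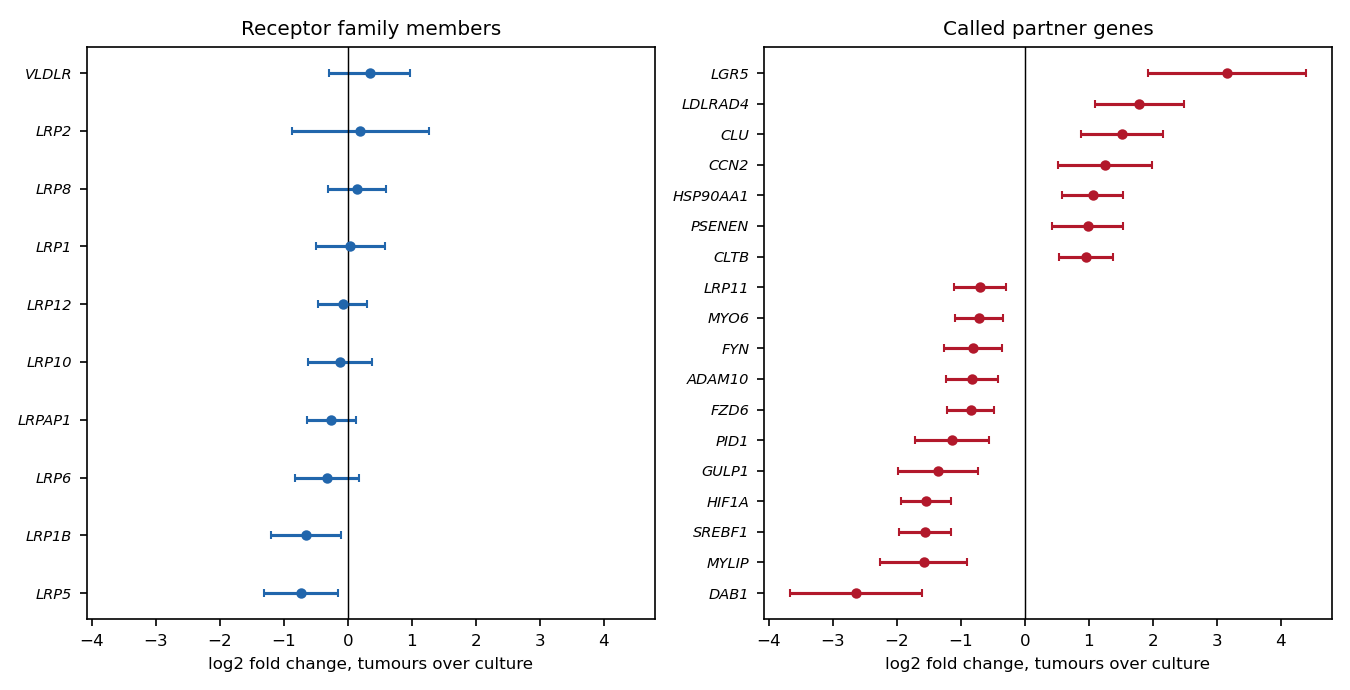
Log2 fold change of the 6 tumours over the culture with 95% intervals as bars, for the 10 receptor genes (left) and partner genes named in the text that passed the threshold (right). LRP5 at -0.73 and LRP1B at -0.65 lie below 0 with their intervals, the intervals of the other 8 receptor genes include 0, and the partner genes run from LGR5 at 3.16 to DAB1 at -2.64.

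Genes that act with these receptors were described by 8 lists holding 134 genes. Between recurrent and primary tumours edgeR called 0 of the 117 tested, against 0.00628% of all genes. Of the 117, 13 (11.1%) had an unadjusted p under 0.05, against 8.38% of all genes, and DESeq2 called 4 (APOE, DLG4, SERPINE2 and SORL1), or 3.42%, against 0.735%. Of 21 LRP1 ligands tested, 6 had a higher and 15 a lower fitted value in recurrent tumours. Over all 15928 genes, 7812 were higher and 8116 lower. The median log2 fold change of the ligands was -0.14, against -0.01 over all genes. At an unadjusted edgeR p under 0.05, 1 ligand was higher and 3 were lower. Nothing is read from this split, since the list was drawn up with earlier results known. Apolipoprotein E (APOE) averaged 5.33 ± 2.46 CPM in recurrent and 13.2 ± 4.51 CPM in primary tumours (SD, n = 3 each), a log2 fold change of -1.30 (SE 0.35). The protease inhibitor SERPINE2, cleared through LRP1, averaged 79.5 ± 12.3 CPM in recurrent and 129 ± 9.65 CPM in primary tumours, a log2 fold change of -0.69 (SE 0.15). The matricellular ligand CCN2 averaged 245 ± 90.6 CPM in recurrent and 153 ± 1.16 CPM in primary tumours.

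Of 7 other LDL receptor class genes tested, 4 had a higher and 3 a lower fitted value in recurrent tumours. Over all 15928 genes these were 7812 and 8116. SORL1, a sorting receptor that routes APP through endosomes, averaged 98.2 ± 28.2 CPM in recurrent and 47.8 ± 12.6 CPM in primary tumours (SD, n = 3 each), against 118 CPM in the culture. Its log2 fold change was 1.05 (SE 0.25), and the groups did not overlap. Of the 117 list genes tested, 17 had groups without overlap, against 15.3% of all genes, so nothing is read from it. DLG4, a scaffold that binds the LRP1 tail, averaged 13.8 ± 1.08 CPM in recurrent and 23.3 ± 1.64 CPM in primary tumours, with no overlap. The membrane protease MMP14, which sheds LRP1, averaged 183 ± 55.1 CPM in recurrent and 281 ± 72.5 CPM in primary tumours, with overlap.

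Against the culture, edgeR called 19 of 122 list genes (15.6%, against 7.66% of all genes), 8 higher and 11 lower in tumours. Over all genes, 3.34% were called higher and 4.32% lower, the background for each list below. Of 24 LRP1 ligands, 3 rose and 0 fell. Among those that rose, the chaperone HSP90AA1 had a log2 fold change of 1.06 (SE 0.22, edgeR adjusted p = 0.015) and CCN2 of 1.25 (SE 0.33, edgeR adjusted p = 0.045). HSP90AA1 ranged from 2987 to 4108 CPM in the tumours, against 1738 CPM in the culture. The CCN2 call was lost under 5 of 12 alternatives, among them without recurrent tumour 3 and without primary tumours 1 or 3.

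Of 8 tested regulators of receptor amount, 0 rose and 3 fell in tumours, against 3.34% and 4.32% of all genes. MYLIP, the ubiquitin ligase that marks VLDLR and LRP8 for breakdown, averaged 7.87 ± 2.34 CPM in tumours (SD, n = 6), against 23.1 CPM in the culture, a log2 fold change of -1.58. SREBF1, a regulator of lipid genes, averaged 89.4 ± 15.8 CPM in tumours against 261 CPM in the culture, and HIF1A, the oxygen-regulated factor, 526 ± 44.3 CPM in tumours against 1525 CPM in the culture. Their edgeR adjusted p-values were 0.012, 0.00085 and 0.00084 in that order, and all 12 alternatives kept the 3 calls.

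Among 22 adaptors and sorting genes, 1 rose and 2 fell in tumours, against 3.34% and 4.32% of all genes. The clathrin light chain gene CLTB rose by a log2 fold change of 0.95, while GULP1 and PID1, adaptors that bind NPxY motifs of LRP1, fell by 1.36 and 1.14 on the log2 scale. The PID1 call was lost without primary tumour 3. In the reelin list of 10 tested genes, CLU, a ligand of VLDLR and LRP8, rose by 1.52, while DAB1, which binds the NPxY motifs of VLDLR and LRP8, fell by 2.64 on the log2 scale. FYN, the kinase that phosphorylates DAB1, fell by 0.81. DAB1 ranged from 0.695 to 2.15 CPM in tumours, against 7.72 CPM in the culture. The FYN call was lost without primary tumour 3 or any 1 recurrent tumour.

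For the calls that follow, the background is again 3.34% of all genes higher and 4.32% lower. Of 31 tested Wnt co-receptor partners, LGR5, a receptor for R-spondins, rose by 3.16 on the log2 scale and FZD6, a Frizzled receptor, fell by 0.85. Of 13 chaperones, convertases and shedding proteases, PSENEN, a subunit of gamma-secretase, rose by 0.98 and ADAM10, a shedding protease, fell by 0.82. The PSENEN call was lost under plain totals and without primary tumour 3 or recurrent tumours 1 or 3, and the ADAM10 call without recurrent tumour 3. Of 7 other LDL receptor class genes, LDLRAD4 rose by 1.79 and LRP11 fell by 0.71, a call lost without any 1 tumour other than primary tumour 2. Of 7 megalin partners, MYO6, a motor of endocytic vesicles, fell by 0.72, a call lost without primary tumour 3 or recurrent tumour 3.

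Tumours were last compared with the controls, which held few counts of most receptors. LRP1 had 8, 20 and 953 counts in controls 1, 2 and 3, and LRP6 had 14, 9 and 305. VLDLR had 18, 14 and 385 counts and LRPAP1 1, 14 and 295, so nearly all control counts come from control 3. That library held line markers at the level of a tumour as a share of its counts. LRP2 had 0, 0 and 6 counts, where a count of 0 allows up to 2.21 and 1.76 CPM in controls 1 and 2. The log2 fold change of LRP1, tumours over controls, was -0.89 (SE 0.36, 95% interval -1.68 to -0.10, edgeR adjusted p = 0.210), and that of LRP1B 1.08 (SE 0.39, edgeR adjusted p = 0.155). Without control 3, they were -0.07 for LRP1 and 1.85 for LRP1B. The neuron markers summed to 17.2 to 26.0 CPM in tumours, against 133 to 5251 CPM in controls, on the scale without small RNA. Their part in these differences was not tested.

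EdgeR called 0 of the 10 genes between tumours and controls, against 5.42% of all genes (0.927% higher, 4.5% lower). At an unadjusted p under 0.05, LRP1B passed on the higher side, against 9.81% of all genes, and LRP1 on the lower side, against 9.46%, which makes 2 of 10 against 19.3%. DESeq2 called 1 of the 10, LRP1 at -1.03, and 8.45% of all genes. The direction of LRP1 depended on the scaling, as it was at 0.33 with plain totals, while LRP1B was above 0 in every fit. With plain totals the median of all genes was 1.74 on the log2 scale, against 0.21 under TMM. Without control 3, LRP12, with 0 and 1 counts in the remaining controls, passed the threshold at an edgeR adjusted p of 0.013. Of the 119 list genes tested, 5 were called, all lower in tumours: DLG4, FYN, RSPO2, RSPO3 and LRP2BP, named after their values were seen. The DLG4 call was lost under plain totals, and the FYN call there and without control 1 or any 1 tumour. LRP2BP, which binds megalin, had 75, 33 and 19 counts in recurrent and 55, 46 and 47 in primary tumours, against 54, 36 and 21 in the controls.

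The genes whose levels most resembled LRP1 over the 6 tumours and the culture, by Pearson's r of log2(CPM + 1), were HEY1 at 0.936, DLG4 at 0.933, GALNS at 0.932, SPARC at 0.924 and GPHN at 0.923. They were chosen from 9706 genes of at least 10 CPM, and the 7 libraries share the split by group that chose LRP1. SPARC, a secreted matrix protein, measured 3418, 2440 and 2397 CPM in recurrent tumours, against 4122, 3934 and 4492 CPM in primary tumours and 3062 CPM in the culture. Among the 8 other receptor genes of at least 10 CPM, r with LRP1 was highest for LRP10 at 0.443 and lowest for LRP8 at -0.434, as a description over 7 libraries.

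Near copies and overlapping genes had few counts. LRP5L, a partial copy of LRP5, had 18 counts in recurrent tumour 1, 15 in primary tumour 2 and 0 in all other libraries. VLDLR-AS1, on the strand opposite VLDLR, averaged 2.73 ± 0.589 CPM in recurrent and 2.53 ± 0.458 CPM in primary tumours (SD, n = 3 each), against 3.91 CPM in the culture. LRP1-AS was at 0 in every library. The libraries are strand-specific, per the labels.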

How the data were processed

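The authors deposited estimated counts per gene from Salmon, which need not be whole and are not scaled between libraries. STAR, Salmon 1.10.3, DESeq2 and the GRCh38 build are named per the submitters' processing notes, without roles or an annotation release. Total RNA was ribodepleted and sequenced as strand-specific pairs, and xengsort gave the graft percentages, per the labels' protocols. The sources used here do not state whether the table holds all reads or graft reads alone. The total without small RNA was 100738, 175767 and 2856506 in controls at 0.33%, 0.55% and 4.9% graft reads. In tumours, at 29.44% to 64.4% graft reads, it was 17729951 to 37314985, so it largely followed the graft share. Of the gene IDs, 58261 matched GENCODE 29, used for coordinates, lengths and coding sequence.

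Counts were rounded to whole numbers and tested with edgeR 4.0.16 in R 4.3.3 (filterByExpr, TMM, glmQLFit, two-sided F test, Benjamini-Hochberg over all tested genes, threshold 0.05); each SE is the log2 fold change over the square root of F. Fits held recurrent and primary tumours; both with the culture; or both with controls. CPM use the TMM-scaled total over tumours and culture, and the plain total for controls. The fitting steps were tested on simulated data. Host share is the median over controls of the count per host read, times a tumour's host reads, over its count. A count of 0 allows 3 counts; such limits and the Wilson intervals cover counting error only.

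All 10 members are named. From each list, genes past the threshold against the culture with the smallest p, and those of largest change between recurrent and primary tumours, were eligible, at most 4 each; some eligible genes are not reported here. Members and lists were chosen with earlier results of these data known. Alternatives were DESeq2 1.42.0, RLE or plain totals, no filter, small RNA left out, a length trend, the graft covariate, IL libraries only and each library left out. The labels name RUVSeq without its settings, and no such step was run.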

Additional observations from a re-analysis of the deposited data

How the results depend on the processing

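The LRP1 difference between recurrent and primary tumours kept its direction under all 14 alternatives. These reuse the tumours in which LRP1 was chosen, so they are no separate support. Genes called between recurrent and primary tumours numbered 1, against 117 with DESeq2 and 411 without a filter. They numbered 0 with the graft covariate and 0 to 23 without 1 tumour. With IL libraries only, BACE1 (-0.0161) and DKK1 (-0.0588) changed sign, as did OCRL (0.0947) and SOSTDC1 (0.45) with the graft covariate. For tumours over culture, 1478 genes were called, 2467 with DESeq2, 2474 without a filter and 942 to 2269 without 1 tumour; members called were 0, 1 without a filter, and 0 to 1 without 1 tumour. LRP1 near 0 changed sign with plain totals (-0.0480) and ranged from -0.0242 to 0.13 without 1 tumour; LRP12 was 0.0575 with the length trend removed. For tumours over controls, 889 genes were called, 1385 with DESeq2, 425 with plain totals, 2125 without a filter and 389 to 2644 without 1 library; members called were 0, 1 with DESeq2, and 0 to 1 without 1 library. There LRP1 was -1.03 with DESeq2 and 0.33 with plain totals, LRP5 -0.0518 with DESeq2, -0.0316 with RLE and -0.0335 to 0.18 without 1 library, LRP6 1.65 with plain totals, 0.0729 with plain totals without small RNA and -0.41 to 0.20 without 1 library, LRP8 -0.13 to 1.23 without 1 library, and LRP10 1.19 with plain totals and -0.41 to 0.19 without 1 library. The highest host share of LRP1, 11.7%, became 102% without small RNA, 8.78% to 125% without 1 control, 0.195% with host reads as odds, 1.70% with odds and no small RNA, and 46.4% with odds, no small RNA and control 3 alone together; these odds forms and plain totals without small RNA were added after seeing the data. The causes were not tested. No paired analysis was possible because the labels give no replicate numbers, and those used follow record order. Controls 1 and 2 hold too few messenger reads to give member levels, and the culture has no replicate.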
